A study of Homo sapiens with 18 samples.

Results

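The MYC gene was followed through the 6 Ensembl transcript identifiers assigned to it that were listed for this work, ENST00000377970.6, ENST00000621592.8, ENST00000524013.2, ENST00000259523.10, ENST00000517291.2 and ENST00000520751.1. All 6 were present among the 35246 transcripts of the deposited table. The table pairs no identifier with a gene, and 0 of its identifiers matched the gene name tables used here, so the assignment to MYC rests on the identifiers alone and was not checked against a second source.

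MYC is a basic helix-loop-helix leucine zipper transcription factor that binds DNA as a heterodimer with MAX, most often at E-box motifs in promoters and enhancers. It raises the expression of genes for ribosome biogenesis, nucleotide and polyamine synthesis, metabolism and cell cycle entry, and both its mRNA and its protein turn over rapidly. MYC is frequently gained or overexpressed in prostate cancer, including disease that has become resistant to androgen deprivation.

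The cells were 22RV1, an established human prostate cancer line that carries full-length androgen receptor together with truncated splice variants lacking the ligand-binding domain. They were grown in RPMI medium with fetal bovine serum and given either the solvent DMSO (vehicle, 3 libraries) or UT-143 at 10 µM (3 libraries) for 20 to 24 hours, and the labels name no genetic change in either group. The series concerns irreversible inhibitors of androgen receptor splice variants that react with cysteine, and the comparison asks what UT-143 does to the transcriptome. The other 12 samples are ATAC-seq (open chromatin) libraries of 22RV1 and LNCaP, not analysed here. Nothing in the labels tells whether the numbered samples of a group were separate cultures. The spread between them, on which every p-value rests, may be technical.

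Values are CPM (reads per transcript, scaled so that library totals are comparable) that the authors rounded to whole numbers, so each carries an uncertainty of up to 0.5 CPM and the depth in reads is unknown. The column totals were 889253 to 900414 CPM in 5 libraries and 923170 CPM in UT-143 replicate 3. That library stands apart: its log2(CPM + 1) values correlated at 0.888 and 0.895 across transcripts with the other UT-143 libraries, which correlated with each other at 0.993, and it lists 6674 transcripts at 5 CPM or less against 2049 to 2868 elsewhere. Results are therefore given with and without it.

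The 3 MYC identifiers with the highest CPM fell after UT-143, to between 60.9% and 62.4% of their vehicle means, a call that was lost when any 1 library other than UT-143 replicate 3 was left out. The 3 with lower CPM stood at 51.9% to 55.0% of theirs and did not pass the test with 6 libraries. All 6 had their lowest value in UT-143 replicate 3. The mean of UT-143 replicates 1 and 2 alone was 63.0% to 67.5% of the vehicle mean for the 3 with lower CPM. It was 64.2% to 65.3% for the 3 with the highest CPM. In bulk RNA, fewer cells of a kind and less RNA per cell cannot be told apart, and CPM values give a share of the library and not an amount per cell.

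ENST00000377970.6 had the highest mean of the 6, at 57.7 CPM over all libraries. Its vehicle values were 73, 74 and 68 CPM in replicates 1, 2 and 3, and its UT-143 values were 47, 45 and 39 CPM. The lowest vehicle value lay 21 CPM above the highest UT-143 value, and the groups did not overlap. The means were 71.7 ± 3.2 CPM (SD, n = 3) in vehicle and 43.7 ± 4.2 CPM (SD, n = 3) after UT-143. It fell by 0.71 on the log2(CPM + 1) scale (standard error 0.10). The adjusted p over all 35246 transcripts was 0.033 (limma).

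ENST00000621592.8 followed it within 1 CPM in every library. It was listed at 72, 73 and 67 CPM in vehicle and at 47, 45 and 39 CPM after UT-143, where all 3 values equalled those of ENST00000377970.6. The means were 70.7 ± 3.2 and 43.7 ± 4.2 CPM (SD, n = 3 each), and it fell by 0.69 on the log2(CPM + 1) scale (standard error 0.10; limma, adjusted p = 0.035).

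ENST00000524013.2 was listed at 69, 69 and 64 CPM in vehicle and at 45, 43 and 38 CPM after UT-143. Again all UT-143 values lay below all vehicle values, by at least 19 CPM. Its means were 67.3 ± 2.9 and 42.0 ± 3.6 CPM (SD, n = 3 each), and it fell by 0.67 (standard error 0.098; limma, adjusted p = 0.034). Isoforms of 1 gene share exons, and how reads shared by several transcripts were assigned is not given in the sources used here. The 3 identifiers are thus not treated as 3 separate measurements of MYC.

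**Figure D1:**
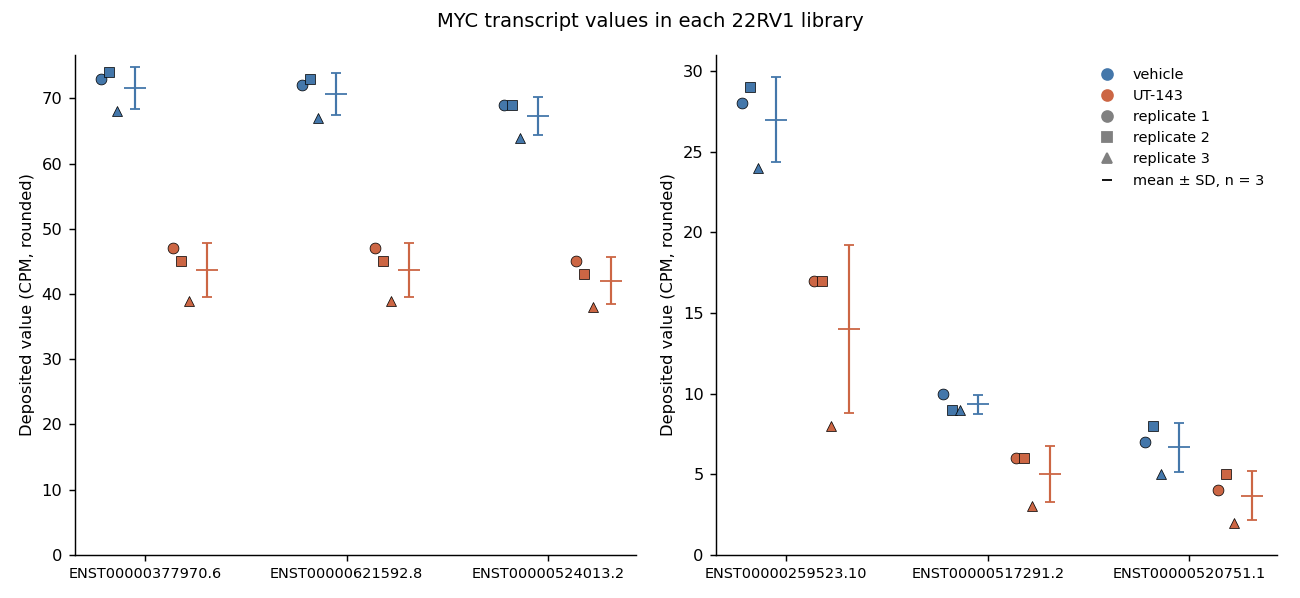
Deposited values (CPM, rounded) of the 6 MYC transcripts in each library, with vehicle in blue, UT-143 in orange, marker shape for the replicate, and bars for mean ± SD (n = 3). The 3 transcripts with the highest CPM sit at 64 to 74 CPM in vehicle and 38 to 47 CPM after UT-143, and the left and right panels have different axes, both starting at 0.

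The 3 identifiers with lower CPM had lower percentages of their vehicle means. Rounding allows 49.1% to 54.7% for ENST00000259523.10, which lies below the percentages of the first 3, but 45.8% to 62.3% for ENST00000517291.2 and 44.2% to 67.6% for ENST00000520751.1, which reach them. ENST00000259523.10 was listed at 28, 29 and 24 CPM in vehicle and at 17, 17 and 8 CPM after UT-143. UT-143 replicates 1 and 2 were equal to each other, and replicate 3 lay 9 CPM below them. The means were 27.0 ± 2.6 CPM and 14.0 ± 5.2 CPM (SD, n = 3 each). The difference was -0.97 on the log2(CPM + 1) scale (standard error 0.29) and did not pass the threshold (limma, adjusted p = 0.11).

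ENST00000517291.2 was listed at 10, 9 and 9 CPM in vehicle and at 6, 6 and 3 CPM after UT-143. The groups did not overlap, and the gap between them was 3 CPM. Its means were 9.33 ± 0.58 and 5.0 ± 1.7 CPM (SD, n = 3 each), and its difference of -0.83 (standard error 0.24) did not pass the threshold (limma, adjusted p = 0.11).

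ENST00000520751.1 was the lowest, at 7, 8 and 5 CPM in vehicle and 4, 5 and 2 CPM after UT-143. Vehicle replicate 3 and UT-143 replicate 2 were both at 5 CPM, so the groups met. The means were 6.7 ± 1.5 and 3.7 ± 1.5 CPM (SD, n = 3 each), and the difference of -0.75 (standard error 0.30) did not pass the threshold (limma, adjusted p = 0.18). This identifier is also near the floor of the table, which lists no transcript with a sum under 30 CPM over the 6 libraries. Its own sum was 31 CPM, of which 20 came from vehicle, and with vehicle values like its UT-143 values it would have summed to 22 and not been listed. Its lower values after UT-143 are for that reason no support for a change. ENST00000517291.2 summed to 43 CPM, and would have summed to 30 on the same reckoning. The order of the identifiers in CPM is not an order of isoform abundance, since CPM does not correct for transcript length and no lengths come with the table.

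Of the 6 MYC identifiers, 3 were called lower and 0 higher (limma, adjusted p under 0.05), where 2.08% of all transcripts were called lower. All 3 UT-143 values lay under all 3 vehicle values in 5 of the 6, against 22.3% of all transcripts. Both shares were higher among transcripts with a vehicle mean within a factor of 1.2 of the called identifiers: 4.64% to 4.93% of those transcripts were called lower, and 30.0% to 30.6% had no overlap with lower values after UT-143. Since the identifiers may share reads, these counts describe 1 gene. A 2-sided exact permutation test of each identifier alone gave p = 0.1 for those 5, which is the smallest p that 3 against 3 libraries allow, and exact p = 0.2 for ENST00000520751.1.

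The median difference over the 6 MYC identifiers was -0.73 on the log2(CPM + 1) scale, beside -0.06 over all transcripts. This median includes ENST00000520751.1, which is listed only through its vehicle values and gives no support for a change. Among all transcripts, 6.80% had a lower difference than ENST00000377970.6, 7.34% a lower one than ENST00000621592.8 and 7.69% a lower one than ENST00000524013.2. The share was 2.51% for ENST00000259523.10, 4.25% for ENST00000517291.2 and 5.54% for ENST00000520751.1. Leaving ENST00000520751.1 aside, the MYC identifiers thus lay in the lower tail of the distribution but were not among its most extreme transcripts. Within the same factor of 1.2 of their vehicle means, 7.63% of 1036 transcripts had a lower difference than ENST00000377970.6, and 2.92% of 3664 a lower one than ENST00000259523.10.

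**Figure D2:**
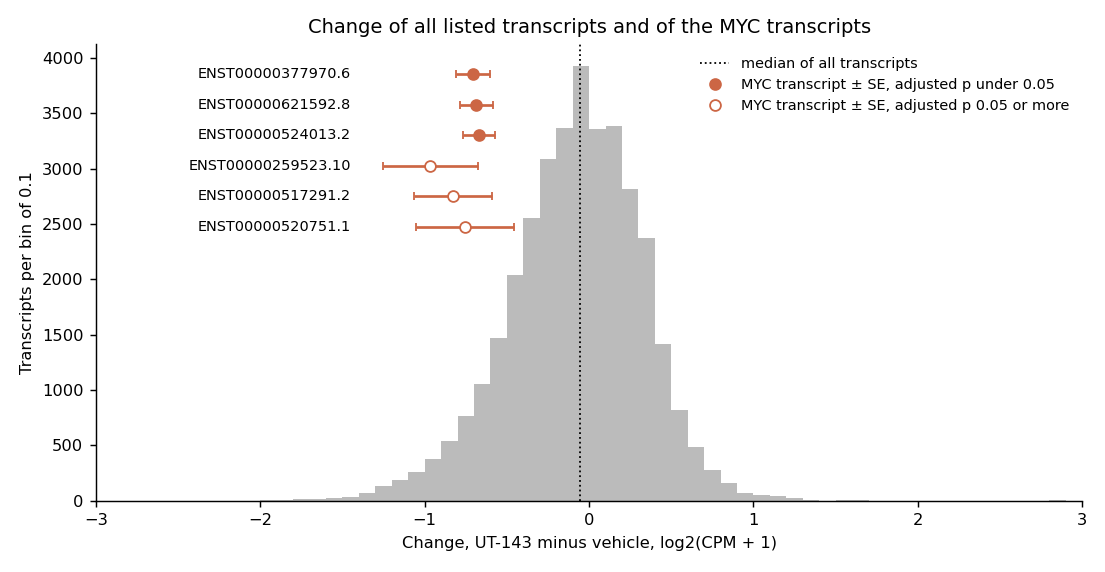
Number of transcripts (vertical axis) by change from vehicle to UT-143 on the log2(CPM + 1) scale (horizontal axis, bins of 0.1), with the 6 MYC transcripts above at their change ± SE, filled where the adjusted p is under 0.05. The MYC transcripts lie between -0.67 and -0.97, left of the median of all transcripts at -0.06.

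The rank of MYC among the listed transcripts moved with its value. In vehicle libraries, ENST00000377970.6 had a higher value than 94.7% to 95.2% of transcripts, with 1640 to 1822 transcripts above it. After UT-143 it was above 90.2%, 89.4% and 86.3% of transcripts in replicates 1, 2 and 3. ENST00000259523.10 was above 74.8% to 79.6% of transcripts in vehicle, above 61.6% and 62.0% in UT-143 replicates 1 and 2, and above 31.4% in UT-143 replicate 3. These ranks do not depend on the scaling of a library's total.

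Without UT-143 replicate 3, all MYC identifiers but ENST00000520751.1 gave much the same size of difference as one another. UT-143 replicates 1 and 2 stood at 65.6% and 62.8% of the vehicle mean for ENST00000377970.6. Both stood at 63.0% of it for ENST00000259523.10, and both at 64.3% for ENST00000517291.2. For ENST00000520751.1 they stood at 60.0% and 75%, with rounding bounds of 48.8% to 73.0% and of 62.8% to 89.2%. With 5 libraries ENST00000377970.6 fell by 0.63 (standard error 0.052; limma, adjusted p = 0.0077), and ENST00000259523.10 fell by 0.63 (standard error 0.093; limma, adjusted p = 0.021). ENST00000621592.8 and ENST00000524013.2 fell by 0.61 and 0.60 (limma, adjusted p = 0.0084 and 0.0079). ENST00000517291.2 fell by 0.56 (limma, adjusted p = 0.0098), and ENST00000520751.1 differed by -0.46 without passing the threshold (limma, adjusted p = 0.20). In this fit 5 of the 6 identifiers were called lower, where 14.6% of all transcripts were. The UT-143 values left in this fit are equal after rounding for ENST00000259523.10 (both 17 CPM) and for ENST00000517291.2 (both 6 CPM). The spread of these identifiers within the UT-143 group is thus known only to the rounding.

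The calls with 6 libraries needed each of the other 5. Leaving out any 1 of vehicle replicates 1 to 3 or UT-143 replicates 1 and 2 left 0 MYC identifiers and 0 transcripts of the whole table at an adjusted p under 0.05 (limma), with 5080 to 9271 transcripts and 4 to 6 of the MYC identifiers at an unadjusted p under 0.05. The 3 identifiers with the highest CPM then differed by -0.65 to -0.76, at adjusted p values of 0.12 to 0.23 (limma).

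**Figure D3:**
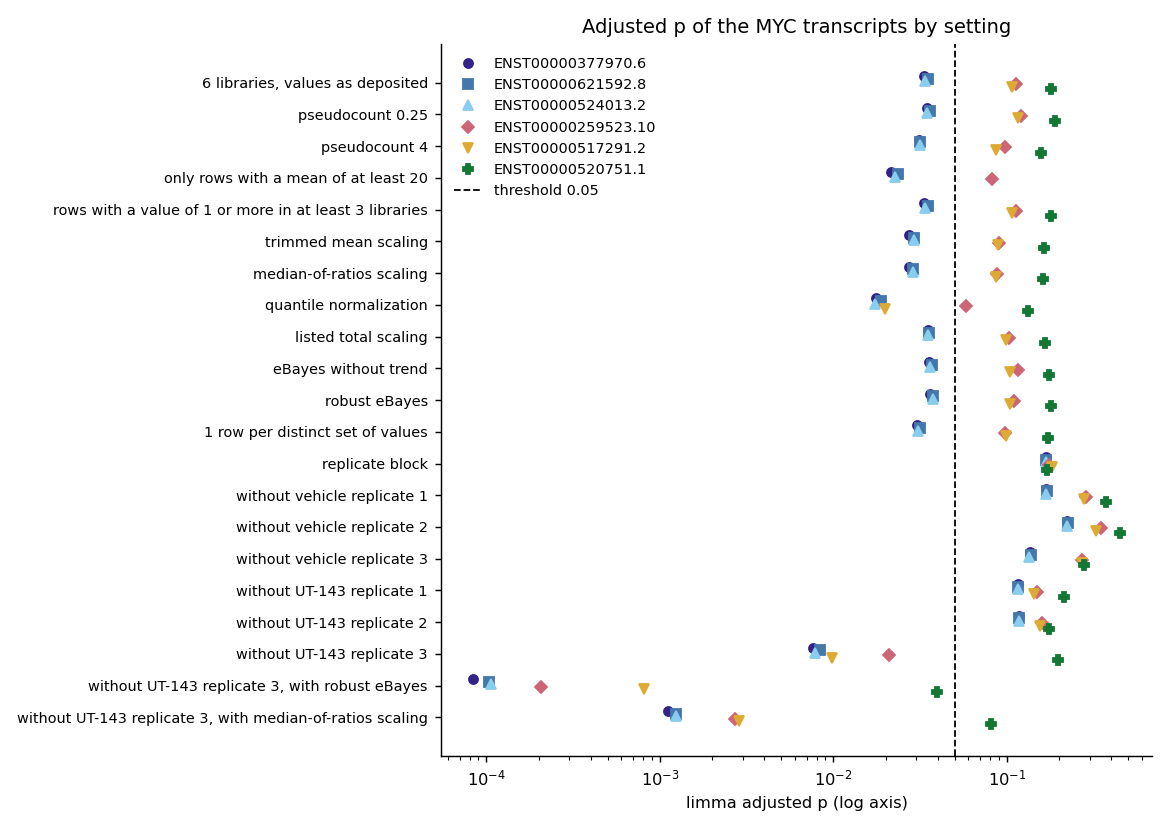
Adjusted p from limma (horizontal log axis) of each MYC transcript under each way of processing the values (vertical axis), with the threshold of 0.05 dashed; a transcript left out by a filter has no point. The 3 transcripts with the highest CPM lie left of the line with 6 libraries under every scaling, pseudocount, filter and moderation shown, and right of it when any library but UT-143 replicate 3 is left out or the replicate number is a block.

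UT-143 replicate 3 had the lowest UT-143 value for all 6 MYC identifiers, but by unequal amounts. For ENST00000377970.6, ENST00000621592.8 and ENST00000524013.2 it was at 54.4%, 55.2% and 56.4% of the vehicle mean. For ENST00000259523.10 it was at 29.6%, with bounds of 27.3% to 32.1% from rounding. For ENST00000517291.2 it was at 32.1% (rounding bounds 25.4% to 39.6%), and for ENST00000520751.1 at 30.0% (rounding bounds 20.9% to 40.5%). The higher 3 and the lower 3 did not overlap in that library. All 6 spanned 60.0% to 66.8% in UT-143 replicate 1 and 62.8% to 75% in UT-143 replicate 2, where ENST00000520751.1 was the highest.

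**Figure D4:**
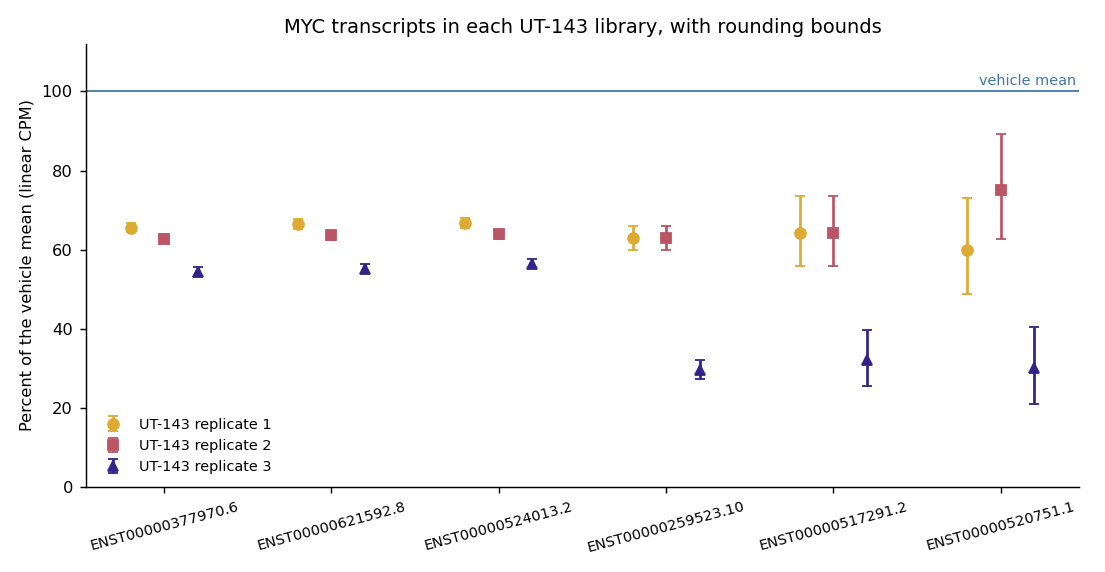
Value of each MYC transcript in each UT-143 library as a percent of its vehicle mean on the linear CPM scale, with bars for the bounds that rounding to whole CPM allows and a line at the vehicle mean. Replicates 1 and 2 lie at 60.0% to 75% for all transcripts, and replicate 3 lies at 54.4% to 56.4% for the 3 with the highest CPM and at 29.6% to 32.1% for the others.

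The same pattern appears when the identifiers are compared within a library. ENST00000259523.10 was at 35.3% to 39.2% of the value of ENST00000377970.6 in the vehicle libraries, at 36.2% and 37.8% in UT-143 replicates 1 and 2, and at 20.5% in UT-143 replicate 3. ENST00000517291.2 was at 12.2% to 13.7% of it in vehicle, at 12.8% and 13.3% in UT-143 replicates 1 and 2, and at 7.69% in replicate 3. ENST00000520751.1 was at 7.35% to 10.8%, at 8.51% and 11.1%, and at 5.13% in the same order. For all 3, the highest ratio that rounding allows in UT-143 replicate 3 lay below the lowest that it allows in any other library. For ENST00000520751.1 the margin was slight, 6.49% against 6.57%, from a value of 2 CPM in that replicate. Between the groups as a whole the ratios of these 3 identifiers overlapped, with 2-sided exact permutation p values of 0.4, 0.6 and 0.7 (smallest possible 0.1). ENST00000621592.8 was at 98.5% to 98.6% of ENST00000377970.6 in vehicle and at 100% after UT-143. ENST00000524013.2 was at 93.2% to 94.5% of it in vehicle, at 95.6% and 95.7% in UT-143 replicates 1 and 2, and at 97.4% in replicate 3, so its ratio was higher after UT-143 where those of the 3 lower identifiers were lower in replicate 3. Both ratios did not overlap between the groups (2-sided exact permutation p = 0.1 each, the smallest possible), but the bounds from rounding did.

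**Figure D5:**
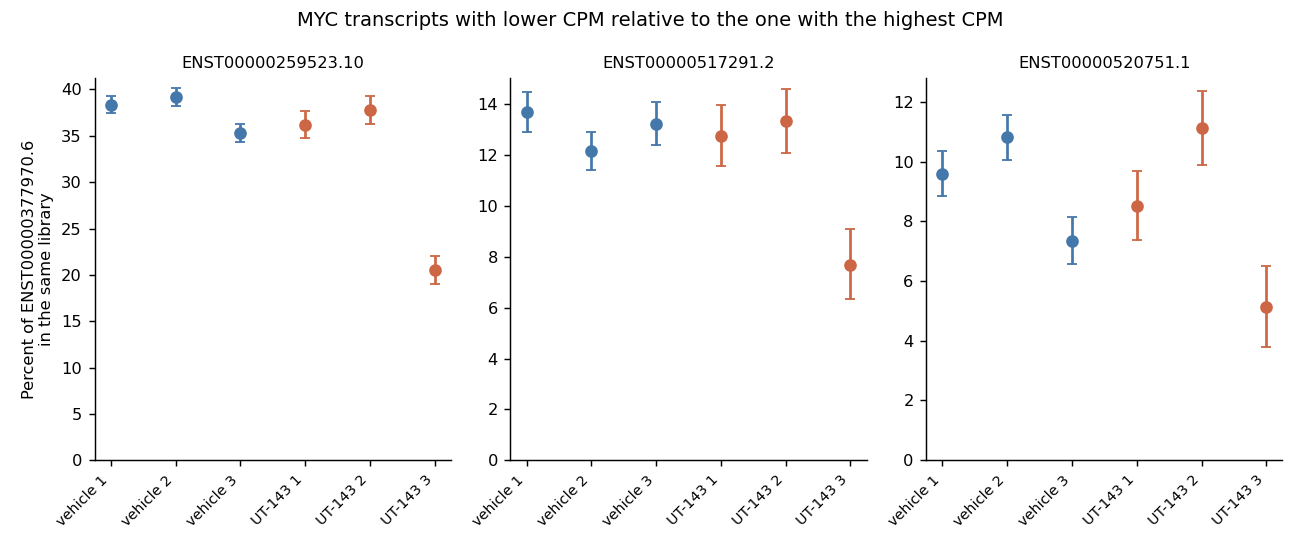
Value of the 3 MYC transcripts with lower CPM as a percent of ENST00000377970.6 in the same library (vertical axes start at 0 and differ), with bars for the bounds from rounding, vehicle in blue and UT-143 in orange. The point of UT-143 replicate 3 is the lowest in each panel, at 20.5%, 7.69% and 5.13%.

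Among transcripts with low CPM, UT-143 replicate 3 was lower than replicates 1 and 2 at the median, but higher at the upper quartile. On the log2(CPM + 1) scale, UT-143 replicate 3 differed from the mean of replicates 1 and 2 by -0.81 for ENST00000517291.2. The 6641 transcripts of similar vehicle mean had a median of -0.22 (quartiles -0.64 and 0.18), and 16.8% of them had a lower difference. For ENST00000259523.10 the difference was -1.0. The 3664 transcripts of similar vehicle mean had a median of -0.11 (quartiles -0.49 and 0.30), and 5.98% of them were lower. For ENST00000377970.6 the difference was -0.23, beside a median of -0.02 (quartiles -0.42 and 0.40) over 1036 transcripts, of which 36.8% were lower. The part of this library in the difference between MYC identifiers was not tested.

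In the authors' deposited table the ratio of the UT-143 mean to the vehicle mean was 0.609 for ENST00000377970.6, 0.618 for ENST00000621592.8 and 0.624 for ENST00000524013.2. The ratio in the authors' deposited table was 0.519 for ENST00000259523.10, 0.536 for ENST00000517291.2 and 0.55 for ENST00000520751.1. The unadjusted p in the authors' deposited table was 0.0010, 0.0012 and 8.6e-04 for the first 3 and 0.031, 0.038 and 0.074 for the others. It was under 0.05 for 5 of the 6, where 11.2% of the transcripts with a p-value in the authors' deposited table had such a p and a ratio under 1. After Benjamini-Hochberg adjustment over the transcripts with a p-value in the authors' deposited table, the first 3 identifiers were at 0.14, above the threshold that the limma fit passed.

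Other transcripts had a similar pattern over the 6 libraries. Among 10256 distinct sets of values with a mean of at least 20 CPM outside MYC, 555 (5.41%) correlated with ENST00000377970.6 at a Pearson r above 0.95. The libraries share only 2 conditions, so a high r mainly requires a separation of the groups in the same direction, whatever its size. The closest were ENST00000262105.6, with r = 0.9987, and ENST00000649973.1, with r = 0.9984. ENST00000262105.6 was listed at 88, 89 and 84 CPM in vehicle and at 56, 55 and 46 CPM after UT-143, and ENST00000649973.1 differed from it by at most 1 CPM in any library. Neither could be paired with a gene here. Of the MYC identifiers, ENST00000621592.8 and ENST00000524013.2 correlated with ENST00000377970.6 at 1.00 each, and ENST00000259523.10, ENST00000517291.2 and ENST00000520751.1 at 0.925, 0.930 and 0.863.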

How the data were processed

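RNA-seq values of 6 libraries were used. Per the submitters' processing notes, FastQC, STAR 2.7.10a, HOMER and build hg38 were used. How reads were counted per transcript is not given in the sources used here. The deposited values are a normalized score, CPM rounded to whole numbers by the authors, so no count model was run. The authors also deposited a ratio of means and an unadjusted p-value per transcript. Groups came from sample titles and columns from sample descriptions. Values were transformed as log2(CPM + 1) and compared with limma 3.58.1 in R 4.3.3 (group as the only term, moderated with a mean-variance trend), with Benjamini-Hochberg adjustment over 35246 transcripts and a threshold of 0.05. Permutation tests used SciPy 1.17.1, and figures Matplotlib 3.10.9. The fit was run on simulated data whose planted changes were larger than those of the called MYC identifiers. That run does not show how the fit calls changes of their size. Every MYC identifier was named, with the 2 transcripts most correlated with the one with the highest CPM over a floor of 20 CPM on the mean. The members, lists and tests were chosen with earlier results of these data known. Lists of MYC partners, MYC target genes and cell type markers were written by gene symbol and were not used, because no identifier could be paired with a gene.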

Additional observations from a re-analysis of the deposited data

How the results depend on the processing

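With 6 libraries, the 3 MYC identifiers with the highest CPM stayed called under other pseudocounts (0.25 and 4), filters, scalings and moderation settings and with 1 row per distinct set of values. Quantile normalization also called ENST00000517291.2 (-0.68), with 1409 transcripts higher and 1966 lower overall. The counts over all transcripts, 456 higher and 732 lower, became 734 and 696 higher under trimmed mean and median-of-ratios scaling. With only transcripts averaging 20 CPM or more, 10908 were tested in place of 35246, and 483 of them were called lower. That filter left out ENST00000517291.2 and ENST00000520751.1. With the replicate block, 0 MYC identifiers and 0 transcripts passed, with 7941 at an unadjusted p under 0.05 in limma, and the changes of these 3 were -0.71, -0.69 and -0.67 at an adjusted p of 0.17. The deviations of same-numbered libraries from their group means correlated at -0.41, 0.52 and 0.04. With so few libraries per group and UT-143 replicate 3 standing apart, these values cannot tell whether same-numbered libraries were paired. Leaving out 1 library gave 0 to 5 MYC identifiers, 0 to 3048 transcripts higher and 0 to 5158 lower. The changes ran from -0.76 to -0.63 for ENST00000377970.6, -0.74 to -0.61 for ENST00000621592.8, -0.72 to -0.60 for ENST00000524013.2, -1.13 to -0.63 for ENST00000259523.10, -0.96 to -0.56 for ENST00000517291.2 and -0.96 to -0.46 for ENST00000520751.1.

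Chosen after seeing the data, robust moderation without UT-143 replicate 3 called 6 MYC identifiers (4843 transcripts higher, 6925 lower), with ENST00000259523.10 at -0.63 and ENST00000517291.2 at -0.56. The count includes ENST00000520751.1 (-0.46), which is listed only through its vehicle values, so that call supports nothing. Median-of-ratios scaling without that library called 5 (5297 higher, 5899 lower), with ENST00000259523.10 at -0.61 and ENST00000517291.2 at -0.54. The most similar transcripts changed with the setting: the highest r were 0.9995 and 0.9987 with a minimum mean of 5 CPM, and 0.9996 and 0.9994 without UT-143 replicate 3. The causes were not tested. Rounding limits values of a few CPM.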
